A study of Rattus norvegicus with 23 samples.

Results

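Tfrc encodes the transferrin receptor, the cell-surface protein through which most cells take up transferrin-bound iron. The gene was 1 of 26405 in the count files, where it is the row ENSRNOG00000001766 of the Ensembl rat annotation. It was selected on its mean level, which was 2.29 times as high in hearts of healthy rats carrying a kidney from a donor with chronic kidney disease (CKD) as the mean of the other 3 groups, so that difference is described and not tested.

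Transferrin carries iron in the blood, binds the receptor at the membrane and is taken into endosomes, where the iron is released and the receptor returns to the surface. The abundance of the mRNA is set in large part by iron itself: when a cell is short of iron, iron regulatory proteins bind stem-loops in the tail of the transcript and protect it from decay. Hypoxia-inducible factors raise its transcription, as shown for the human gene. Dividing cells and immature red blood cells carry much of the receptor, and in mice its loss from heart muscle cells leads to iron-poor, failing hearts.

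RNA-seq of the heart apex was done in 23 Lewis rats, 1 library per rat, 6 weeks after kidney transplantation. The groups crossed the donor's health with the recipient's. CD-HR rats (n = 6) were healthy recipients of a CKD kidney, CD-CR rats (n = 6) were CKD recipients of a CKD kidney, HD-CR rats (n = 5) were CKD recipients of a healthy kidney and HD-HR rats (n = 6) were healthy recipients of a healthy kidney. CKD had been produced by coagulating part of both kidneys, followed by the nitric oxide synthase inhibitor L-NNA (200 mg/L in the drinking water) and chow with 6% NaCl, both stopped once proteinuria reached 200 mg per 24 h. A CKD rat entered the transplantation protocol at a proteinuria of 100 mg per 24 h off both agents. Donors and recipients of all 4 groups shared the strain, so each graft was an isograft. All recipients shared the orthotopic left kidney graft with 30 minutes each of cold and warm ischemia, isoflurane and buprenorphine, and removal of the native right kidney 10 to 14 days later. Recipient CKD therefore includes the heart's earlier exposure to ablation, L-NNA and salt, and these cannot be told apart. The sources used here give neither sex nor age.

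Depth was close between groups, with 7391929 to 12444980 counts in genes per library and a median of 9831294. CD-CR1 and HD-CR2 stood apart by the smallest share of counts in the 10 most abundant genes, 48.8% and 51.4%. CD-HR5 stood apart by 10.7 alignments to more than 1 place per counted read, the most of any library. The tissue label was not checked against heart marker genes, and the other genes of iron uptake, storage and sensing, of blood cells and of dividing cells were not analysed here, since nothing used here pairs their identifiers with names. The part of those cells in the values of Tfrc was therefore not tested, and in bulk tissue fewer cells of a type and less RNA per cell cannot be told apart.

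The stretch in front of the gene is shown because transcription there is one of the routes by which Tfrc mRNA is raised. It is the RefSeq sequence of build GRCr8, chr11:81690319-81690568 on the minus strand, the 250 bases before the annotated start, given 5′ to 3′; the counts were made on an older build. Capitals mark the short motifs found.

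Tfrc upstream window: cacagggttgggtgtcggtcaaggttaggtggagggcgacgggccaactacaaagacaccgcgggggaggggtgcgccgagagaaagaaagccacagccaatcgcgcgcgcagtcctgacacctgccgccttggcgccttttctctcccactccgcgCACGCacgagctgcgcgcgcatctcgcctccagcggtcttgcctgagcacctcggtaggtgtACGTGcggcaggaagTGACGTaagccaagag

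Both strands were searched. The core recognised by hypoxia-inducible factors, ACGTG or GCGTG, occurred at 2 places: ACGTG on the gene's strand from position -31, counted back from the annotated start, and GCGTG on the opposite strand from position -93, where the printed letters read CACGC. One of the 2 forms is held by 36.7% of the 33469 upstream windows of the same length in the RefSeq table, and ACGTG alone by 16.6%. TGACGT, the core of cyclic AMP response elements, occurred 1 time, from position -16 with no overlap, and in 6.95% of windows. No match was found to CACGTG, the E-box used by MYC, which contains ACGTG (5.59% of windows), to GGGCGG, the GC box (30.5%), or to TATAAA (12.9%). The window was 64.8% G or C, above 84.2% of all windows, whose median was 51.2%. These matches describe the letters, and the count files do not bear on what binds there.

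Tfrc was high in 5 of the 6 hearts of healthy rats with a CKD kidney, and every heart of the other groups except HD-HR4 lay below these 5. Levels are in CPM, the counts scaled to a common library size, after TMM scaling, which corrects that size for a few dominant genes. The 6 CD-HR rats had 64.5, 88.7, 41.9, 63.7, 76.5 and 25.3 CPM in the order CD-HR1 to CD-HR6. CD-CR1 to CD-CR6 had 21.7, 25.6, 24.6, 30.4, 22.1 and 33.5 CPM. HD-CR1 to HD-CR5 had 18.7, 21.5, 28.2, 22.6 and 26.9 CPM, and no rat of this group reached 30.4 CPM, the level of CD-CR4. Of the HD-HR rats, HD-HR4 had 44.2, HD-HR5 34.2 and HD-HR2 30.1 CPM, and the other 3 had 20.3 to 22.4 CPM. Of the CD-HR hearts, 4 lay above all 17 hearts of the other groups. CD-HR3 lay above every CKD recipient and below HD-HR4, and CD-HR6 lay above 9 of the 17.

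**Figure D1:**
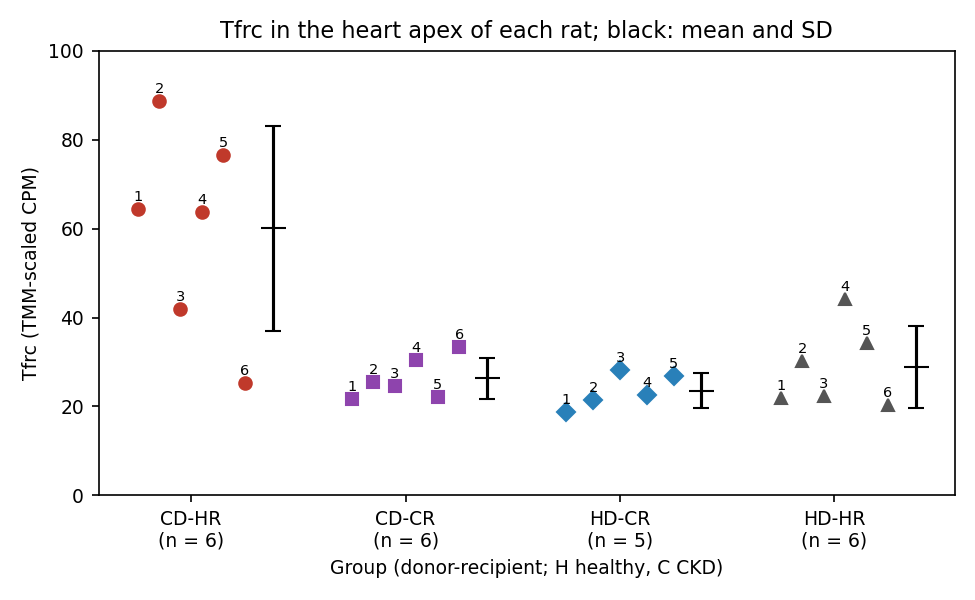
Tfrc in TMM-scaled CPM (y axis) in each rat, by group (x axis); points are rats with their replicate number and black bars the mean and SD of the group. The CD-HR points run from 25.3 to 88.7 CPM, while no rat of another group exceeds 44.2 CPM.

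The group means were 60.1 ± 23.1 CPM in CD-HR (SD, n = 6), 26.3 ± 4.70 in CD-CR (n = 6), 23.6 ± 3.94 in HD-CR (n = 5) and 28.9 ± 9.27 in HD-HR (n = 6), so that HD-HR came next below CD-HR, then CD-CR, then HD-CR. The ranges of these 3 lower groups overlap one another. The range of CD-HR overlaps all 3 through CD-HR6 alone, except that CD-HR3 also falls below the highest HD-HR rat. Without CD-HR6 the CD-HR mean was 67.0 ± 17.4 CPM (SD, n = 5), and without CD-HR5, the library with the most non-unique alignments, it was 56.8 CPM. In CPM of the library total, with no TMM scaling, the means were 59.0 in CD-HR, 25.8 in CD-CR, 23.8 in HD-CR and 30.2 in HD-HR.

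The read counts behind these levels were 219 to 868 in CD-HR and 184 to 393 in the other groups. CD-HR4 had the most, 868 counts with an exact Poisson 95% interval of 811 to 928, and CD-HR6 had 219. Counting alone gives a coefficient of variation of 3.39 to 7.37% per library. The coefficient between rats was 38.4% in CD-HR, 17.9% in CD-CR, 16.7% in HD-CR and 32.1% in HD-HR. With 1 library per rat, differences between rats and between library preparations cannot be told apart. The intervals cover counting error only, since no molecular identifiers are named for these PCR-amplified libraries.

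The spread of Tfrc was wide among healthy recipients. On the log2 CPM scale its SD was 0.66 in CD-HR and 0.44 in HD-HR, and 0.25 in CD-CR and 0.24 in HD-CR. Set against the 1453 other genes within 0.5 log2 units of its mean level, the SD of Tfrc was above that of 98.0% of genes in CD-HR and of 96.0% in HD-HR, but of 62.5% in CD-CR and 72.6% in HD-CR. The CD-HR value leaned on CD-HR6: without it the SD of Tfrc was 0.40 (n = 5), above that of 88.4% of those genes. In HD-HR the highest rat, HD-HR4, had 5.47 log2 CPM and the next, HD-HR5, 5.11. The SD of HD-HR without HD-HR4 was not computed. The median SD of those genes was 0.23, 0.22, 0.18 and 0.19 in CD-HR, CD-CR, HD-CR and HD-HR. The edgeR dispersion of Tfrc over all groups was 0.0747, and the trend at its abundance was 0.0320.

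A CKD kidney in a healthy recipient went with a level of Tfrc 2.08 times that with a healthy kidney. The log2 fold change of CD-HR minus HD-HR was 1.06 ± 0.23 (SE, edgeR, n = 6 each), given without a test because it led to the choice of the gene. Against the mean log2 level of HD-HR, CD-HR2 lay 1.67 higher, CD-HR5 1.46, CD-HR1 1.21, CD-HR4 1.19 and CD-HR3 0.59 higher, and CD-HR6 was at -0.13. Thus 5 of 6 rats showed the direction. The value lay between 0.91 without CD-HR2 and 1.22 without HD-HR4 when each library was left out in turn, and between 0.92 and 1.07 under the other settings tried.

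CD-HR was also the higher group against both groups of CKD recipients. Its level was 2.55 times that of HD-CR (CD-HR minus HD-CR, log2 1.35 ± 0.25, SE). CD-CR minus CD-HR was -1.19 ± 0.23 on the log2 scale, which puts CD-CR at 0.438 times CD-HR although both carried a CKD kidney. These comparisons share the CD-HR rats with the one above and were likewise used in choosing the gene. The donor by recipient term, the donor difference in CKD recipients minus that in healthy recipients, was -0.90 ± 0.33 (SE), also with no test.

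Among all genes, a ratio as large as that of Tfrc was rare. The CD-HR mean of Tfrc was 2.29 times the mean of the other 3 group means, and the median gene stood at 0.999. Of 11568 genes tested, 16 (0.138%) had a ratio at least as large, Tfrc included, and 57 (0.493%) had at least 4 CD-HR rats above all 17 others. Among the 11032 genes that averaged at least 1 CPM, 11 had a ratio at least as large, and 42 had a larger log2 fold change of CD-HR minus HD-HR. These shares restate how the gene was found.

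**Figure D2:**
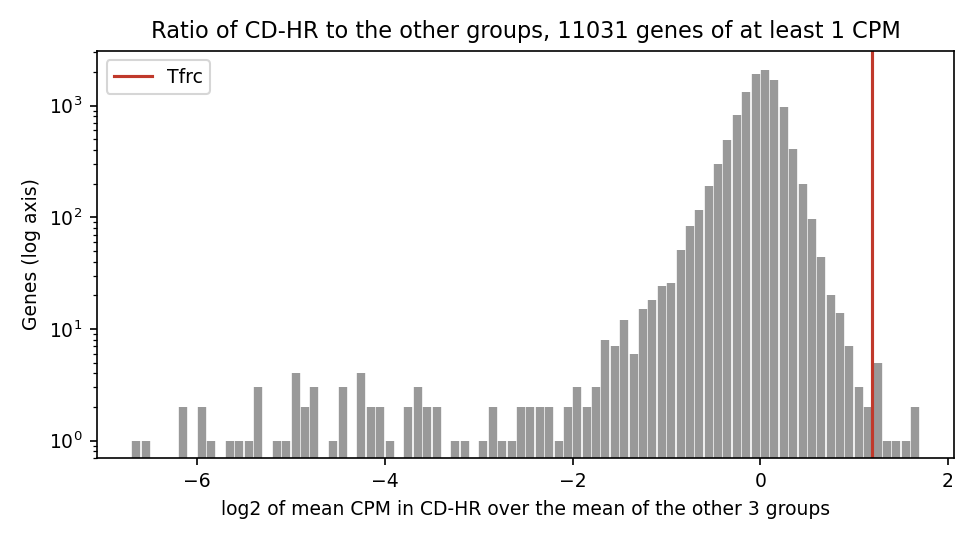
Number of genes (y axis, log scale) by log2 of the ratio of mean CPM in CD-HR to the mean of the other 3 group means (x axis, bins of 0.1), for 11031 genes averaging at least 1 CPM; 1 further gene at 0 is not drawn. The red line marks Tfrc, whose ratio of 2.29 is reached by 11 genes of that level.

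The comparisons that leave out CD-HR were not the difference on which the gene was selected. They were tested with edgeR's quasi-likelihood test over all 11568 genes, with Benjamini-Hochberg adjustment. The levels of the other 3 groups still entered the choice, since CD-HR was set against them. The tests are therefore not fully independent of the choice. No difference in Tfrc passed an adjusted p under 0.05 in any of the 3 comparisons. In CKD recipients, rats with a CKD kidney had 26.3 ± 4.70 CPM (CD-CR, n = 6) and rats with a healthy kidney 23.6 ± 3.94 CPM (HD-CR, n = 5). The log2 fold change was 0.16 (95% interval -0.35 to 0.66; edgeR adjusted p = 0.890), in a comparison where 0.0259% of all genes were called. On the linear scale that interval reaches from 0.787-fold to 1.58-fold. Between the 1 CD-CR and the 1 HD-CR rat whose animal name begins with 13, the log2 value turned to -0.32. By library, 4 of 6 CD-CR rats lay above the mean log2 level of HD-CR, by at most 0.52 (CD-CR6).

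With a healthy kidney, CKD recipients had 23.6 ± 3.94 CPM (HD-CR, n = 5) and healthy recipients 28.9 ± 9.27 (HD-HR, n = 6). The log2 fold change was -0.29 (95% interval -0.80 to 0.21; edgeR adjusted p = 0.551), where 0.614% of all genes were called. The value was -0.074 in a fit that included non-unique alignments, -0.046 for the 1 HD-CR rat whose name begins with 13, and -0.13 without HD-HR4. With disease in both donor and recipient, CD-CR had 26.3 ± 4.70 CPM and HD-HR 28.9 ± 9.27 (n = 6 each), a log2 fold change of -0.13 (95% interval -0.61 to 0.34; edgeR adjusted p = 0.804), where 3.65% of genes were called. That value turned to 0.076 in the fit with non-unique alignments and to 0.027 without HD-HR4. Two-sided exact permutation tests on log2 CPM gave p = 0.329 for CD-CR minus HD-CR, 0.290 for HD-CR minus HD-HR and 0.652 for CD-CR minus HD-HR, which are 0.494, 0.494 and 0.652 after Benjamini-Hochberg adjustment over the 3. Each interval gives the differences compatible with these rats at the 95% level. The smallest difference that could be detected was not computed.

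**Figure D3:**
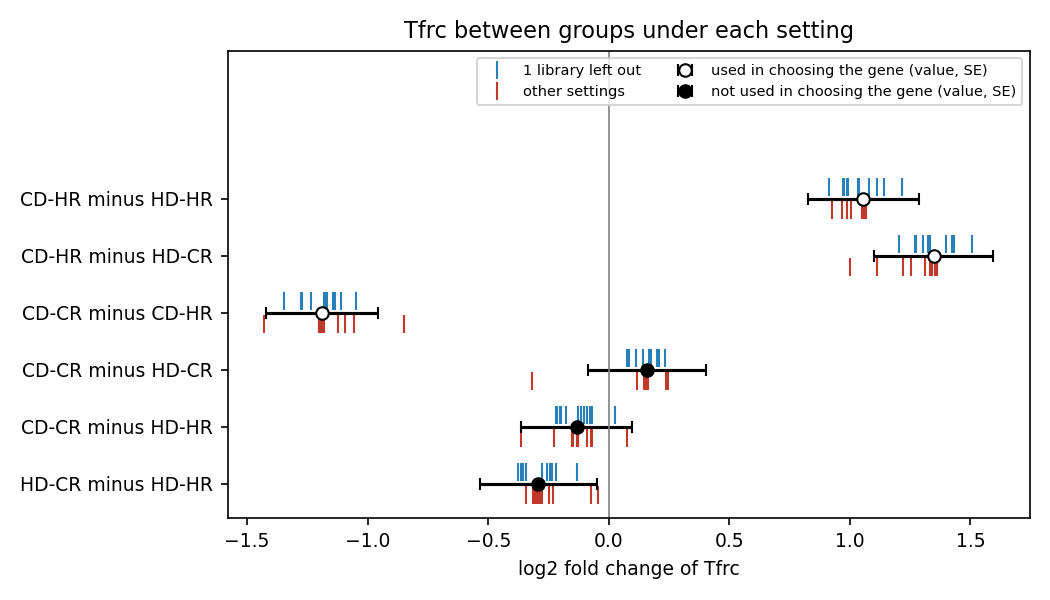
Log2 fold change of Tfrc (x axis) for 6 comparisons of groups (rows). Circles with bars are the edgeR value and its SE, open where the comparison was used in choosing the gene; blue ticks leave out 1 library each and red ticks are the other settings. The comparisons with CD-HR stay on their side of 0 at every tick, while the ticks of CD-CR minus HD-CR and CD-CR minus HD-HR fall on both sides.

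The 3 libraries with the most alignments to several places in the genome, CD-HR5, CD-HR2 and HD-HR4, had high Tfrc for their groups. The log2 ratio of non-unique alignments to counted reads averaged 1.44 ± 1.21 in CD-HR, 0.33 ± 0.95 in CD-CR, 0.25 ± 0.40 in HD-CR and 1.04 ± 0.59 in HD-HR (SD). CD-HR6, the CD-HR rat with the least Tfrc, had -0.25, and CD-HR2 and CD-HR5, with the most Tfrc, had 1.88 and 3.42. CD-HR3, whose Tfrc also lay below that of HD-HR4, had 1.18. HD-HR4, the highest rat outside CD-HR, had 1.85. In TMM-scaled CPM, CD-CR went the other way: CD-CR1 had the highest ratio of its group, 1.42, and its lowest Tfrc, 21.7 CPM. That rank depended on the scaling, since CD-CR1 had the largest TMM factor of all libraries, 1.46. In CPM of the library total, CD-CR1 had 31.7, the highest of its group. Pearson r of Tfrc, in TMM-scaled log2 CPM, with this measure was 0.78 within CD-HR, 0.62 within HD-HR and -0.11 within CD-CR (n = 6 each). Exact permutation p, adjusted over these 3 groups, was 0.167, 0.300 and 0.783 in the same order. The r was not computed within HD-CR.

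With group means removed, the deviations of Tfrc and of this measure over the 23 libraries had a Pearson r of 0.52 (permutation p = 0.0461, two-sided) and a Spearman rho of 0.44 (permutation p = 0.0619). Adjusted over the 4 library measures tried, the values were 0.184 and 0.127, so the relation did not pass. It rested on CD-HR5 and CD-HR6, without which r was 0.25. Of the other measures, the percent of reads in no feature gave r = 0.43 and rho = 0.42 (adjusted permutation p = 0.188 and 0.127). The share of the 10 most abundant genes gave r = 0.064 and rho = 0.091 (adjusted permutation p = 0.761 and 0.690), and the total count gave r = -0.20 and rho = -0.25 (adjusted permutation p = 0.569 and 0.357).

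The file names carry an animal name that begins with 12 or 13, whose meaning the sources used here do not state. All healthy recipients have 13, as do 1 CD-CR and 1 HD-CR rat. The remaining CKD recipients have 12, so recipient disease and whatever the prefix stands for can hardly be told apart. This holds for every comparison of CKD with healthy recipients and for the wide spread of Tfrc among healthy recipients. Within the 12 healthy recipients the group-centred r with non-unique alignments was 0.73 (unadjusted permutation p = 0.0190). These include CD-HR5 and CD-HR6, on which the relation over all libraries rested. Within the 9 rats named with 12 the r was -0.15 (unadjusted permutation p = 0.764). Non-unique alignments as a covariate of the edgeR fit gave a log2 fold change of 0.92 for CD-HR minus HD-HR, against 1.06 without it. The comparisons with CKD recipients moved further, to 0.999 for CD-HR minus HD-CR, against 1.35 without it, and to -0.85 for CD-CR minus CD-HR, against -1.19 without it. The 3 CD-HR libraries inside the HD-HR range of the measure, CD-HR1, CD-HR3 and CD-HR4, had 64.5, 41.9 and 63.7 CPM, against 20.3 to 44.2 CPM in HD-HR.

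**Figure D4:**
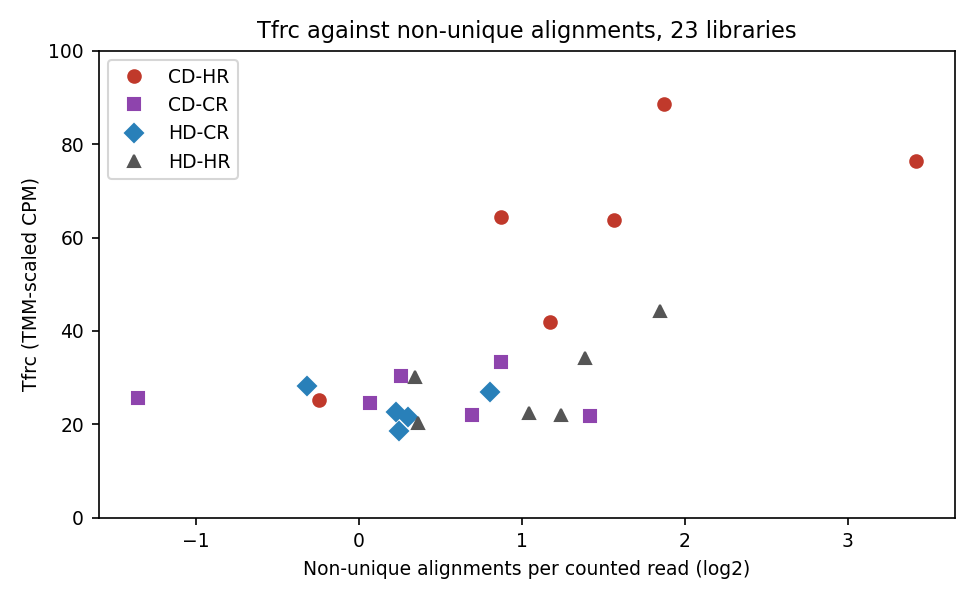
Tfrc in TMM-scaled CPM (y axis) against the log2 ratio of non-unique alignments to counted reads (x axis); each point is 1 library, with shape and colour by group. CD-HR6 lies among the other groups at -0.25 and 25.3 CPM, and CD-HR5 lies farthest right at 3.42 and 76.5 CPM.

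The animal names also number the rats. In CD-HR the numbers after 13 are 3, 4, 5, 7, 8 and 29, and in HD-HR they run from 22 to 51. The 5 low-numbered rats are all CD-HR, and for them the donor's disease and whatever the number stands for cannot be told apart. The rat numbered 29, CD-HR1, had 64.5 CPM, and the rat numbered 8, CD-HR6, had 25.3 CPM.

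The genes whose level followed Tfrc most closely were taken by Pearson r of log2 CPM over all 23 libraries, among 11031 other genes averaging at least 1 CPM. These values are a description: the libraries share the CD-HR difference that chose Tfrc. The highest r, 0.83 (Spearman 0.85), belonged to ENSRNOG00000017876, with 21.8 ± 3.07 CPM in CD-HR, 15.5 ± 2.47 in CD-CR, 13.3 ± 2.18 in HD-CR and 15.0 ± 2.05 in HD-HR. ENSRNOG00000013884 had r = 0.81 and 6.83 ± 2.48, 3.39 ± 0.648, 3.14 ± 0.907 and 4.40 ± 1.10 CPM in the groups CD-HR, CD-CR, HD-CR and HD-HR. Both were highest in CD-HR, as Tfrc was. ENSRNOG00000013884 also had an r of 0.71 with log2 non-unique alignments over the 23 libraries, and ENSRNOG00000017876 one of 0.54.

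The lowest r, -0.83, belonged to ENSRNOG00000016875, with 12.1 ± 2.52 CPM in CD-HR, 19.4 ± 4.09 in CD-CR, 22.3 ± 3.30 in HD-CR and 17.1 ± 2.16 in HD-HR. ENSRNOG00000003515 followed with -0.81 and 5.05 ± 1.45 CPM in CD-HR, 10.9 ± 3.01 in CD-CR, 13.6 ± 4.21 in HD-CR and 9.13 ± 2.85 in HD-HR. Both ran opposite to Tfrc, lowest in CD-HR and highest in HD-CR. Only 2 genes reached an r of 0.8 and 2 reached -0.8, and the median over all genes was -0.0079.

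**Figure D5:**
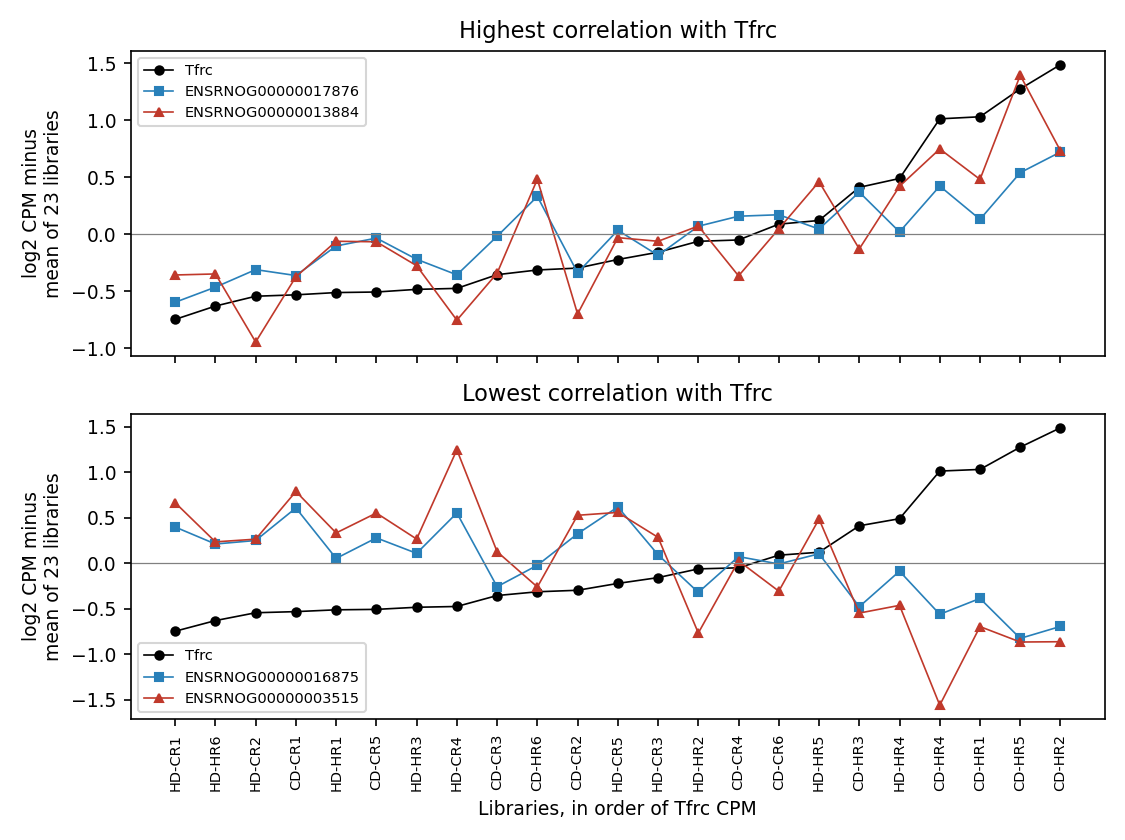
Log2 CPM minus its mean over the 23 libraries (y axis) for Tfrc and for the 2 genes with the highest (upper panel) and the 2 with the lowest Pearson r with it (lower panel); libraries are in order of Tfrc (x axis). The upper genes, with r of 0.83 and 0.81, climb with Tfrc at the right, where CD-HR2, CD-HR5, CD-HR1 and CD-HR4 stand, and the lower genes drop there.

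With group means removed, which takes out the difference that chose the gene, ENSRNOG00000005989 (r = 0.80) and ENSRNOG00000033593 (r = 0.77) had the highest r. The lowest over all genes was -0.89, in a gene not described here. These are the extremes of 11031 genes, and whether values this large arise by chance was not tested. ENSRNOG00000005989 had 4.60 ± 1.92 CPM in CD-HR, 3.51 ± 0.964 in CD-CR, 2.42 ± 0.390 in HD-CR and 3.68 ± 1.47 in HD-HR. ENSRNOG00000033593 had 41.4 ± 4.89, 41.2 ± 4.36, 38.4 ± 3.07 and 35.2 ± 2.72 CPM in the same groups. Neither showed the 2.08-fold level of Tfrc in CD-HR over HD-HR. The 4 genes named before them had group-centred correlations of 0.59, 0.59, -0.59 and -0.55 with Tfrc.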

How the data were processed

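RNA of the heart apex of 23 rats was isolated with Trizol, enriched for polyadenylated RNA and made into directional libraries, per the labels' protocols. The authors deposited raw read counts per gene, 1 file per library, with 26405 genes and 5 summary lines that were left out of totals. The build was Rnor_5.0 and the tools HTSeq 0.6.1p1, STAR 2.4.2a and Picard, per the submitters' processing notes; the sources used here state no annotation release, strand setting or duplicate removal, so reads shared with similar or overlapping genes may be assigned imperfectly.

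Groups and replicate numbers came from the titles. Chi-square per degree of freedom was at least 8.38 over all 253 pairs of libraries, so none agreed within sampling noise. Genes passing filterByExpr (11568) were TMM-scaled and fitted in 1 edgeR 4.0.16 model of the 4 groups (R 4.3.3, robust glmQLFit, glmQLFTest), with Benjamini-Hochberg adjustment. The SE of a log2 fold change is its size over the root of F. The code was tested on simulated data. Log2 CPM used a prior count of 2. Permutations within groups (100000) used scipy 1.17.1.

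The gene and the lists were chosen with earlier results of these data known. The 16 gene lists could not be matched (0 Ensembl identifiers in the reference tables), so the rule for named genes left Tfrc and at most 2 identifiers of each kind of likeness. Alternatives were DESeq2 1.42.0, limma-voom (limma 3.58.1), other scalings, no filter, covariates, subsets and each library left out.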

Additional observations from a re-analysis of the deposited data

How the results depend on the processing

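The log2 fold changes of CD-HR against HD-HR, HD-CR and CD-CR kept their direction and stayed within the spread between rats (SD 0.43) under every alternative run. The donor by recipient term was -1.38 among libraries named with 13, where CD-CR and HD-CR have 1 rat each, assumed to vary like the others. For the 3 comparisons without CD-HR, Tfrc passed under 0 of the alternatives, with edgeR, DESeq2 or limma adjusted p of 0.823 to 0.9997 (CD-CR minus HD-CR), 0.404 to 0.974 (HD-CR minus HD-HR) and 0.655 to 0.988 (CD-CR minus HD-HR). The sign turned for CD-CR minus HD-CR among libraries named with 13 (-0.32) and for CD-CR minus HD-HR with non-unique alignments as a covariate (0.076) and without HD-HR4 (0.027, range over libraries left out -0.22 to 0.027); the causes were not tested.

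The background counts moved more. For HD-CR minus HD-HR, 71 genes became 259 by DESeq2, 44 by limma-voom, 23 on library totals, 306 in the 2 groups alone, 3 with the name prefix as a covariate, 10 within prefix 13, 47 with the top-gene share (counts in the 10 most abundant genes) as a covariate, 111 without the 3 libraries that stand apart, and 5 (without HD-CR5) to 89 with 1 library left out. For CD-CR minus HD-CR, 3 genes became 36 by DESeq2, 15 on library totals, 7 in the 2 groups alone, 0 within prefix 13, 5 with that share, 12 without the 3 libraries, and 2 to 18 (without HD-CR2) with 1 left out. For CD-CR minus HD-HR, 422 genes became 651 by DESeq2, 155 on library totals, 0 with the prefix as a covariate or within prefix 13, 219 without the 3 libraries, and 227 (without CD-CR6) to 514 with 1 left out.

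The correlation of Tfrc with non-unique alignments was 0.25 without CD-HR5 and CD-HR6 and -0.15 within prefix 12. That with reads in no feature was -0.27 within prefix 12. It was 0.68 within prefix 13 and 0.58 without CD-CR1 and CD-HR5 (unadjusted permutation p = 0.0396 and 0.0101). With group means left in it was 0.57, a value that holds the CD-HR difference that chose the gene and is given without a test. That with the total count was 0.16 within prefix 12 and -0.43 without CD-CR1 and CD-HR4. The correlation with the top-gene share was -0.039 with group means left in, -0.10 without CD-CR1 and HD-CR2, and -0.11 within prefix 13.

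Replicate numbers were not taken as pairs: same-numbered libraries of different groups had correlations of -0.32 to 0.36 over genes, and 6 of 23 correlated best with their own number. With the number as a replicate block, CD-HR minus HD-HR was 1.05, CD-CR minus HD-CR 0.24, HD-CR minus HD-HR -0.31 and CD-CR minus HD-HR -0.073, and no call on Tfrc changed. Leaving out CD-CR1, HD-CR2 and CD-HR5, a setting chosen after seeing the data, gave 0.99 for CD-HR minus HD-HR. Among libraries named with 12, also added later, CD-CR minus HD-CR was 0.25. The donor by recipient term has no fit of 2 groups alone, and alternatives for genes of the named lists were not run, since none was matched.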
